A study of Sus scrofa with 20 samples.

Results

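The antioxidant, thioredoxin and glutathione enzymes of the porcine adrenal gland were examined in 10 high-reactive (HR) and 10 low-reactive (LR) pigs. The members were chosen by gene symbol, with earlier results of these data known. The choice took the glutathione peroxidases, peroxiredoxins, superoxide dismutases, thioredoxins with their reductases, quinone reductase and the heme oxygenases. It also took the enzymes that make, recycle and attach glutathione. This gave 39 genes on 70 probe sets, of 13588 named genes and 47722 probe sets in all. Each gene was represented by its probe set with the highest mean over the 20 arrays.

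All animals were German Landrace pigs, and no animal received a treatment that the sources name. The labels call them adult, while the paper gives only an average age at slaughter in days after birth. The groups come from the backtest, a test of how a piglet struggles when laid on its back, and the animals were picked both as extremes of this test and by their haplotypes at a locus linked to coping, so that behavior and haplotype cannot be told apart. One array was hybridized per animal with RNA of an adrenal gland. Neither sex nor litter nor array batch could be modelled, since the sources name none of them.

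Adrenal steroid synthesis uses mitochondrial and microsomal cytochrome P450 enzymes that leak superoxide and hydrogen peroxide. Superoxide dismutases turn superoxide into hydrogen peroxide, and glutathione peroxidases and peroxiredoxins reduce the peroxide with electrons from glutathione or thioredoxin, which glutathione reductase and the thioredoxin reductases regenerate with NADPH. Glutathione transferases attach glutathione to reactive compounds, and many of these genes share control by the transcription factor NRF2.

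The arrays had medians of log2 values between 4.74 and 4.81. The array of animal HR2835 stood apart, since it correlated with the others at 0.938 on average, against 0.977 to 0.983 for the other 19. For the check of the tissue label, 8 of 13 listed genes of the steroid-producing cortex and 10 of 12 of the chromaffin cells were named on the array. All of these lay above the median of all probe sets, with a mean of 13.42 for STAR and 12.15 for CHGB. Of 6 liver genes, 3 lay above that median as well, the highest being APOA1 with a mean of 7.01, while ALB had a mean of 3.35. HR2835 had the lowest cortex score, the mean of the standardized marker values, at -2.59, with -0.43 to 0.93 in the other HR animals and LR values between -0.53 and 0.47. Its score of 9 capsule and fibroblast genes was -2.32, with -0.56 to 0.55 in the other HR animals and LR values between -0.49 and 1.31. HR2835 was also lowest of HR for the leukocyte (-0.86), red blood cell (-0.63), endothelial (-0.77), adipocyte (-1.22) and liver (-1.25) scores. Its chromaffin score of 0.089 lay inside the HR range of -0.59 to 1.27. Scores are in units of marker SD, which for the cortex genes lay between 0.082 for CYP17A1 and 0.31 for FDXR on the log2 scale. In whole tissue, fewer cells of a type and less RNA per cell cannot be told apart. Differences that HR2835 turned round or moved most are therefore given with and without it.

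Of the 39 genes, 36 had a mean above 4.78, the median over all probe sets. The 3 below were GPX2 at 4.47, GPX6 at 3.22 and PRDX2 at 3.13. Values of different probe sets depend on their probes as well as on the transcript, so that they do not order the genes. From animal to animal the SD lay between 0.12 for SOD1 and 1.26 for GSTA1, and 8 genes had an SD over 0.4. Without HR2835 this number was 3. The median SD over the 36 brighter members was 0.29, against 0.27 over all probe sets above the median level, and without HR2835 these were 0.22 and 0.23.

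**Figure D1:**
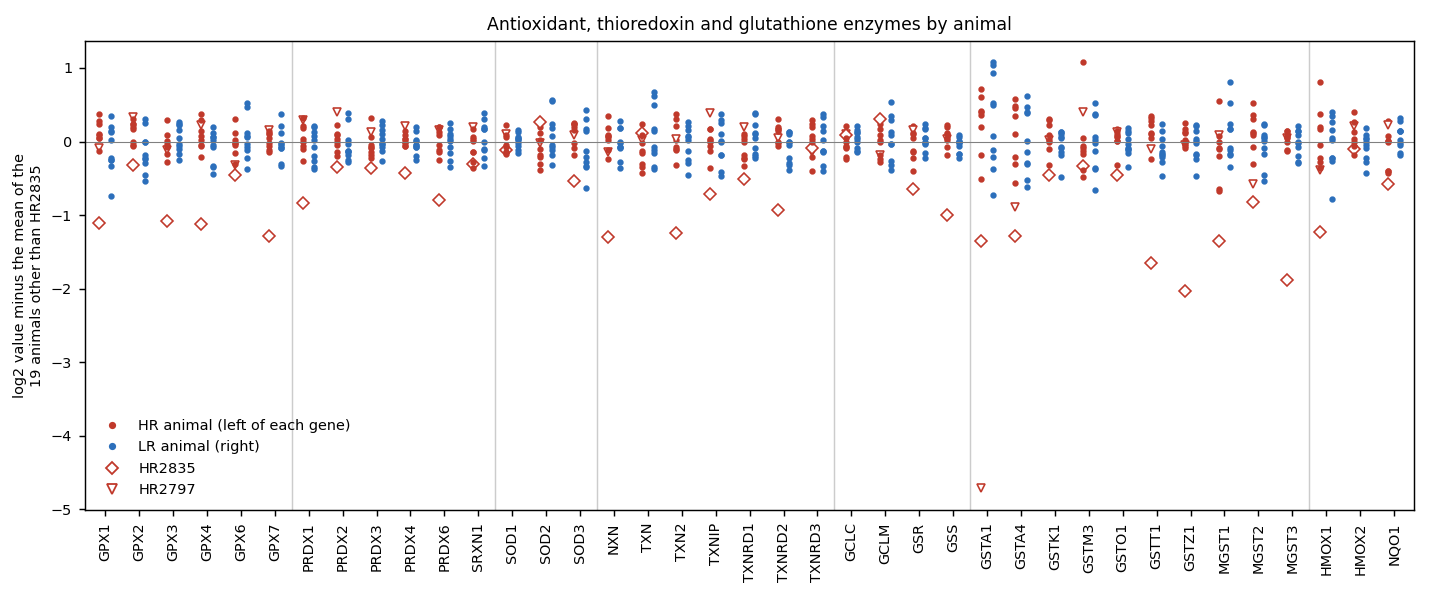
Log2 value of each of the 39 genes in each animal, minus the mean of the 19 animals other than HR2835, with HR animals left and LR animals right of each gene and vertical lines between the groups of enzymes. The open diamonds of HR2835 lie below all other animals for 26 genes, and the open triangle of HR2797 is the lowest value of GSTA1.

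HR2835 carried the lowest HR value of 29 of the 39 genes, where the same was true of 44.8% of the probe sets above the median level. It lay below each of the other 19 animals for 26 genes, against 36.3% of those probe sets, and its median deviation from their mean was -0.64 over the members and -0.23 over those probe sets. The largest deficits were in glutathione transferases. GSTZ1, which acts in tyrosine breakdown, was 6.07 in HR2835 and 8.11 ± 0.18 in the other 19 (SD), and MGST3, a microsomal transferase, was 6.25 in HR2835 and 8.14 ± 0.15 in the others. HR2835 lay above the mean of the others for 4 genes, TXN, GCLC, SOD2 and GCLM. SOD2, the manganese superoxide dismutase of mitochondria, at 9.51, and GCLM, the modifier subunit of glutamate-cysteine ligase, at 7.38, were highest of all HR animals in HR2835. The part of tissue makeup or RNA quality in these deviations was not tested.

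No member was called between HR and LR. In limma over all probe sets, 0 of 39 genes passed an adjusted p of 0.05 in either direction, against a background of 0% of all probe sets, and groups that did not overlap were found for 0 of 39 genes and 0 of 47722 probe sets. An unadjusted p under 0.05 was reached by 1 gene, GPX2, against 3.65% of all probe sets, or 2.01% counting only those with the higher mean in HR. Without HR2835 it was reached by 3 genes, GPX2, GSTT1 and TXNRD2, all with the higher mean in HR, against 7.89% of all probe sets and 3.92% in that direction. For 34 of 39 genes the 95% interval of the difference lay within 0.5 of 0 on the log2 scale, and for 36 without HR2835.

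The tally of directions turned with 1 animal. HR had the higher mean for 15 of 39 genes, against 50.9% of all probe sets and 45% of those above the median level. Without HR2835 this count was 24, against 53.4% and 52.8%, since 9 genes turned to the higher mean in HR and 0 turned the other way. The median difference, HR minus LR, was -0.041 over the members and -0.010 over all named genes, and without HR2835 it was 0.051 and 0.011.

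**Figure D2:**
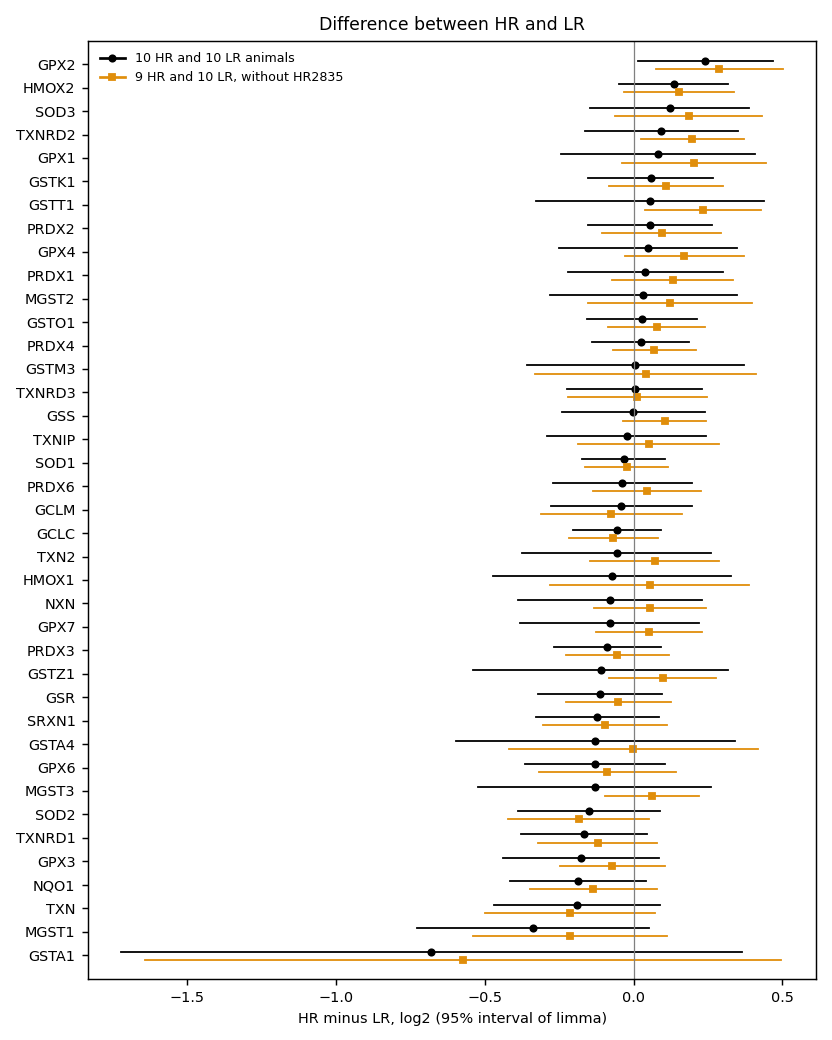
Difference of each gene in log2 units, HR minus LR, with its 95% interval from limma, ordered by size, for all 20 animals (black circles) and without HR2835 (orange squares). Only the intervals of GPX2 leave out 0 with all animals, and those of GPX2, GSTT1 and TXNRD2 without HR2835, before any adjustment for multiple tests.

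The glutathione peroxidases, which reduce hydrogen peroxide and lipid peroxides, comprised 6 genes, of which 3 had the higher mean in HR. GPX2, an enzyme best known from the lining of the gut, lay between 4.17 and 4.82 with a median of 4.67 in HR, against 3.96 to 4.79 with a median of 4.29 in LR. The groups overlapped, although 9 of 10 HR animals lay above the LR median. The difference was 0.24 (standard error 0.11, unadjusted p = 0.037, adjusted p = 1.0 in limma), and 0.29 without HR2835 (unadjusted p = 0.011, adjusted p = 0.606). Since the probe set lies below the median level, this difference concerns a dim signal, and the dimmer probe set of GPX2 differed by 0.13 (unadjusted p = 0.343).

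GPX3, the secreted plasma form, had a lowest value of 11.70, a median of 12.72 and a highest value of 13.08 in HR, against 12.54, 12.79 and 13.05 in LR. The difference of -0.18 (standard error 0.13, adjusted p = 1.0 in limma) shrank to -0.072 without HR2835, which held the lowest value. A second probe set of GPX3, dim at a mean of 2.39, differed by -0.23 (unadjusted p = 0.024). GPX4, which removes peroxides from membrane lipids and guards against ferroptosis, averaged 9.51 ± 0.42 in HR and 9.46 ± 0.22 in LR (n = 10 each, SD), and its 3 probe sets differed by 0.049, 0.14 and 0.17. Without HR2835 they differed by 0.17, 0.25 and 0.27, the last with an unadjusted p of 0.0053 and an adjusted p of 0.606 in limma. GPX1 differed by 0.082 and by 0.20 without HR2835, GPX6 by -0.13 and -0.088, and GPX7, a form of the endoplasmic reticulum, by -0.080 and 0.051.

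Peroxiredoxins reduce peroxides through a reactive cysteine, and sulfiredoxin (SRXN1) revives them once that cysteine is overoxidized. The differences of the 6 genes lay between -0.12 for SRXN1 and 0.055 for PRDX2, with 0 reaching an unadjusted p of 0.05. Without HR2835 they lay between -0.096 and 0.13, and PRDX6 turned to a difference of 0.044 where it was -0.038 with all animals. PRDX3, the peroxiredoxin of mitochondria, where side-chain cleavage of cholesterol takes place, ranged from 11.87 over a median of 12.15 to 12.55 in HR animals, against 11.97, 12.23 and 12.50 in LR animals. The ranges nearly coincided, and the difference was -0.088 (standard error 0.086, adjusted p = 1.0 in limma) and -0.055 without HR2835.

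Among the superoxide dismutases, SOD3, the extracellular form, lay between 4.63 and 5.42 with a median of 5.29 in HR, against 4.54 to 5.59 with a median of 5.002 in LR, and 8 of 10 HR animals were above the LR median. Its difference was 0.12 (standard error 0.13, adjusted p = 1.0 in limma) and 0.18 without HR2835. SOD1, the enzyme of the cytosol, was the least variable member by its representative probe set, which averaged 11.17 ± 0.13 in HR and 11.20 ± 0.10 in LR (n = 10 each, SD). Its further probe sets followed that one with r of 0.85, 0.71, -0.081 and 0.10, and the last had an SD of 0.75 over all animals. A further SOD1 probe set differed by -0.30 (unadjusted p = 0.029), while 3 others differed by 0.053, 0.056 and 0.15, so that the probe sets of this gene disagreed in direction. SOD2 differed by -0.15 with all animals and by -0.18 without HR2835.

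Of the 7 genes of thioredoxins, their reductases and TXNIP, 2 had the higher mean in HR and 0 passed the test. TXN, the cytosolic thioredoxin, ranged from 8.72 over a median of 9.06 to 9.38 in HR, against 8.77, 9.17 and 9.80 in LR, and differed by -0.19 (standard error 0.13, adjusted p = 1.0 in limma). TXNRD1, the reductase that serves it, ranged from 8.52 over 8.93 to 9.23 in HR, against 8.81, 9.10 and 9.42 in LR, with 3 of 10 HR animals above the LR median. The difference of TXNRD1 was -0.17 (standard error 0.10, unadjusted p = 0.119), and its second probe set, which followed the first with r = 0.89, differed by -0.28 (unadjusted p = 0.014, adjusted p = 1.0).

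TXNRD2, the mitochondrial reductase, spanned 6.14 to 7.39 with a median of 7.17 in HR, against 6.69 to 7.21 with a median of 7.05 in LR. The lowest HR value was that of HR2835, and the next was 7.01. The difference was 0.094 (standard error 0.12, unadjusted p = 0.458) with all animals and 0.20 without HR2835 (unadjusted p = 0.027, adjusted p = 0.619 in limma), yet the other probe sets of TXNRD2 differed by -0.24 and 0.076, and by -0.16 and -0.031 without HR2835. TXNIP, which binds and inhibits thioredoxin and responds to glucose, ranged from 10.67 over 11.39 to 11.78 in HR, against 10.92, 11.38 and 11.76 in LR, and its difference of -0.023 became 0.051 without HR2835. TXN2, TXNRD3 and nucleoredoxin (NXN) differed by -0.057, 0.0033 and -0.079, and by 0.071, 0.013 and 0.054 without HR2835. NXN lies on chromosome 12, where the paper places the coping locus, and whether it falls within that locus was not tested.

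The enzymes of glutathione synthesis and reduction had lower means in HR for all 4 genes, by small amounts. Both subunits of glutamate-cysteine ligase, which sets the rate of glutathione synthesis, were measured, and GCLC differed by -0.056 and GCLM by -0.041. Glutathione synthetase (GSS) averaged 9.02 ± 0.36 in HR and 9.02 ± 0.10 in LR, and glutathione reductase (GSR) averaged 8.41 ± 0.27 in HR and 8.53 ± 0.14 in LR (n = 10 each, SD). Without HR2835, GSS turned to a difference of 0.10, while GSR differed by -0.052, GCLC by -0.068 and GCLM by -0.075.

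Glutathione transferases form the largest class, with 10 genes, of which 5 had the higher mean in HR and 7 without HR2835. MGST1, a transferase of microsomal and outer mitochondrial membranes, lay between 8.81 and 10.72 with a median of 10.06 in HR, against 9.82 to 10.97 with a median of 10.20 in LR, and 3 of 10 HR animals were above the LR median. The difference was -0.34 (standard error 0.19, unadjusted p = 0.087, adjusted p = 1.0 in limma) and -0.21 without HR2835. The second probe set of MGST1 differed by -0.017 (unadjusted p = 0.923) and by 0.11 without HR2835.

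GSTK1, a transferase of mitochondria and peroxisomes, ranged from 7.99 over 8.46 to 8.75 in HR and from 7.95 over 8.43 to 8.56 in LR. Its difference was 0.058 (standard error 0.10, adjusted p = 1.0 in limma) and 0.11 without HR2835. GSTZ1 ranged from 6.07 over 8.11 to 8.35 in HR and from 7.64 over 8.10 to 8.33 in LR, and its difference of -0.11 (standard error 0.21) became 0.098 without HR2835. The medians of both genes differed by less than the spread of either group. GSTT1, whose difference without HR2835 was 0.23 (unadjusted p = 0.022, adjusted p = 0.610), differed by 0.056 with all animals, and its second probe set by -0.12 with all animals and -0.072 without HR2835. GSTM3, GSTO1, MGST2 and MGST3 had differences between -0.13 and 0.033, and between 0.041 and 0.12 without HR2835, where MGST3 turned to 0.062.

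GSTA1, of the alpha class, some of whose enzymes also isomerize precursors of steroids, varied most of all members. It ranged from 7.15 over a median of 12.15 to 12.58 in HR, against 11.14, 12.16 and 12.95 in LR. The value of 7.15 belonged to HR2797, and the next lowest of all animals was 10.52 in HR2835. A second probe set showed the same animal at 2.82, while the other 19 lay between 8.01 and 10.75, and both probe sets followed each other with r = 0.95 over all animals and r = 0.75 without HR2797. The dimmest probe set of GSTA1 had a mean of 1.90 and did not follow them (r = -0.13). The difference between the groups was -0.68 (standard error 0.50, unadjusted p = 0.190, adjusted p = 1.0 in limma) and -0.20 without HR2797, where HR averaged 11.94 ± 0.66 (SD, n = 9) and LR 12.14 ± 0.64 (SD, n = 10). The second probe set differed by -0.54 with all animals and by 0.17 without HR2797, so that the bright probe sets then disagreed in direction. Near-identical alpha-class transferases could bind the same probes, so that the values may stand for more than 1 gene.

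Single animals so far below the rest were rare on these arrays. Among 23861 probe sets above the median level, 4 had 1 animal more than 3 below the next lowest, a limit set after the values were seen. HR2797 accounted for 3 of them, both bright GSTA1 probe sets and 1 with no name in the annotation, at 4.30 against a next lowest of 8.44. The fourth was C1QC, a complement gene of macrophages, in HR2835. The array of HR2797 had a mean correlation of 0.980 with the others, within their range.

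GSTA1 lies on chromosome 7 of Sscrofa11.1 at 46538743 to 46550781. The next gene with a probe set named here, LOC100526118 at 46571106 to 46588139, starts after a gap of 20324 bases and is followed after 47763 bases by GSTA4, at 46635903 to 46656491. LOC100526118 was also lowest in HR2797, at 3.59, against 7.95 ± 1.49 in the other 19 animals (SD) with 5.03 as their lowest. GSTA4, which conjugates lipid peroxidation products such as hydroxynonenal, was 8.75 in HR2797 against 9.61 ± 0.51 in the others. Of 21 named genes measured within 1 Mb of GSTA1, 5 were below all other animals in HR2797, where the same was true of 2.86% of all named genes. These were PKHD1, IL17F, GSTA1, LOC100526118 and ICK, of which PKHD1, IL17F and ICK deviated from the mean of the others by -0.40, -0.39 and -0.44. Animal and window were chosen after the low GSTA1 value of HR2797 was seen, and GSTA1 itself is counted. The count is therefore a description and carries no test.

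**Figure D3:**
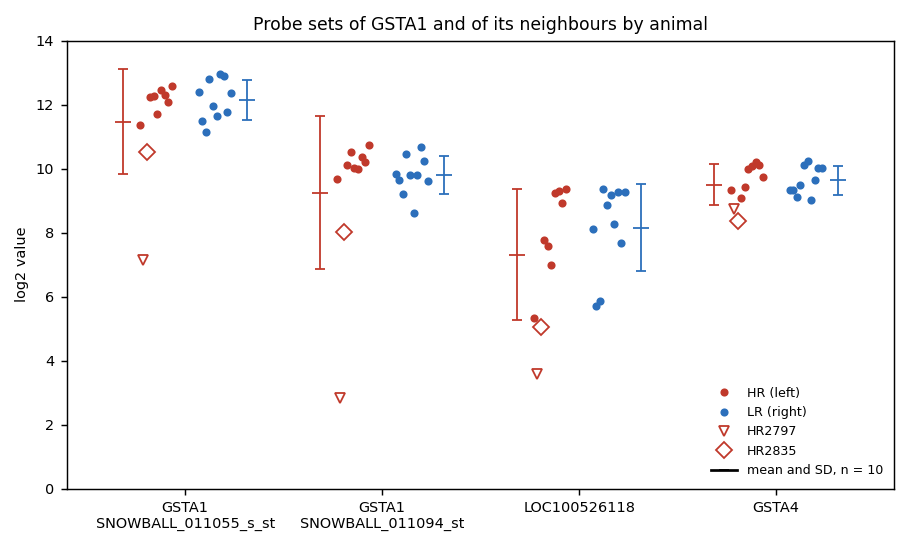
Log2 values of the 2 bright GSTA1 probe sets and of its chromosomal neighbours LOC100526118 and GSTA4 in each animal, HR left and LR right, with bars for mean and SD (n = 10 each). The triangle of HR2797 lies below all other animals in the first 3 columns, at 7.15, 2.82 and 3.59, but not for GSTA4.

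LOC100526118 was also the gene whose values followed GSTA1 most closely from animal to animal, among 13549 genes outside the members. Over 20 animals centred on their group means r was 0.80 and rho 0.78, without HR2797 r was 0.80 and rho 0.74, and r was 0.85 within HR and 0.69 within LR. Next came Sept12 (r = 0.78), GAST (0.77), RBM23 (0.76) and NR4A1 (0.74). Having been picked as the highest of many, these values are a description and carry no test. LOC100526118 itself lay between 3.59 and 9.37 with a median of 7.68 in HR, against 5.72 to 9.38 with a median of 8.56 in LR, and differed by -0.84 (standard error 0.70, unadjusted p = 0.245) and by -0.43 without HR2797.

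GSTA4 ranged from 8.35 over 9.58 to 10.21 in HR, against 9.02, 9.57 and 10.25 in LR. Its difference was -0.13 (standard error 0.23, adjusted p = 1.0 in limma), and -0.00069 without HR2835.

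Quinone reductase and the inducible heme oxygenase are textbook targets of NRF2. NQO1, which reduces quinones in a single step, lay between 6.94 and 7.80 with a median of 7.52 in HR, against 7.34 to 7.84 with a median of 7.60 in LR, and 2 of 10 HR animals were above the LR median. It differed by -0.19 (standard error 0.11, unadjusted p = 0.106, adjusted p = 1.0 in limma). HMOX2, the constitutive heme oxygenase, ranged from 8.13 over 8.31 to 8.70 in HR, against 7.88, 8.27 and 8.48 in LR, and differed by 0.13 (standard error 0.088, unadjusted p = 0.142). HMOX1, the inducible form, averaged 8.30 ± 0.55 in HR and 8.37 ± 0.36 in LR (n = 10 each, SD), a difference of -0.072 that became 0.054 without HR2835.

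Beyond the representative probe sets, the members had 31 further ones. Of these, 0 passed the adjusted test and 3 had an unadjusted p under 0.05, those of TXNRD1, GPX3 and SOD1 given above, against 3.65% of all probe sets. Without HR2835, 0 passed and 4 had an unadjusted p under 0.05, those of GPX4, TXNRD1 and GPX3 and the dimmest one of GSTA1, against 7.89%, while that of SOD1 had an unadjusted p of 0.059. The sign of the difference was that of the representative probe set for 19 of 31, and r between them exceeded 0.7 for 9.

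Genes that regulate or feed the same system were read from lists of 84 measured genes. In limma, 0 of 84 were called, 1 had an unadjusted p under 0.05, against 3.65% of all probe sets, and 30 had the higher mean in HR, against 45% of the probe sets above the median level, with a median difference of -0.035. Without HR2835, 0 were called, 40 had the higher mean in HR, against 52.8%, and the median difference was -0.0033. The 1 gene was MT1A, a metallothionein that binds zinc and copper, which averaged 5.40 ± 0.18 in HR and 5.62 ± 0.24 in LR (n = 10 each, SD, unadjusted p = 0.036, adjusted p = 1.0). Without HR2835 it was no longer among them (unadjusted p = 0.056), and TXNL4A (0.18, unadjusted p = 0.015) and MAFK, a small partner of NRF2 (0.19, unadjusted p = 0.040), had an unadjusted p under 0.05, which makes 2 of 84, against 7.89%.

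By list, the higher mean was in HR for 3 of 7 regulators of NRF2 with all animals and 2 without HR2835, and for 2 and 4 of 8 genes of NADPH supply. With and without HR2835 it was in HR for 5 and 7 of 16 glutaredoxins and thioredoxin-domain proteins, 5 and 9 of 19 genes of cystine uptake and glutathione turnover, and 6 and 6 of 12 genes of selenoprotein synthesis and other selenoproteins. The counts were 2 and 3 of 5 for repair of methionine sulfoxide and proteins, 6 and 7 of 12 for sources of oxidants and 1 and 2 of 5 for metal storage. Mitochondrial transhydrogenase (NNT), which makes NADPH beside the steroid enzymes, differed by -0.22 both with all animals (unadjusted p = 0.079) and without HR2835, glutaredoxin GLRX2 by -0.31 (unadjusted p = 0.066) and -0.20, and malic enzyme ME1 by -0.13 and -0.026. The transcription factor NFE2L1 differed by -0.20 with all animals and -0.052 without HR2835, the amino acid transporter subunit SLC3A2 by -0.15 and -0.090, and the glutathione-degrading CHAC1 by 0.17 and 0.24. The methionine sulfoxide reductase MSRA turned from lower to higher in HR, at -0.076 with all animals and 0.034 without HR2835, and MSRB3 differed by -0.23 and -0.11. P450 reductase (POR) differed by -0.15 with all animals and -0.081 without HR2835, NCF4 of the phagocyte oxidase by 0.15 and 0.18, and ferritin FTH1 by -0.058 and -0.021. SEPHS1 and SEPP1 of selenium metabolism differed by -0.11 and -0.17 with all animals and by -0.070 and -0.21 without HR2835. None of the genes from NNT to SEPP1 had an unadjusted p under 0.05 with or without HR2835.

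Co-variation was then measured, which asks which enzymes were high or low together in the same animals, apart from HR and LR. Values were centred on the group means, and the 741 pairs of members were tested by permuting animals within groups. With all animals, 112 pairs passed an adjusted p of 0.05, 106 of them positive and 6 negative, while 47 passed by Spearman's rho. Without HR2835, 21 pairs passed, of which 16 were among the 112. The share of pairs of other genes passing this test was not measured, so that these counts do not set the members apart. The median r over the pairs was 0.32, against 0.027 over all pairs of named genes, and without HR2835 it was 0.061, against -0.0012. Likewise r exceeded 0.7 in 10.5% of the pairs of members, against 3.28% of the pairs of all named genes and 5.39% of those above the median level. Without HR2835 these shares were 2.29%, 0.885% and 1.46%. Each pair named below is given with and without HR2835.

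**Figure D4:**
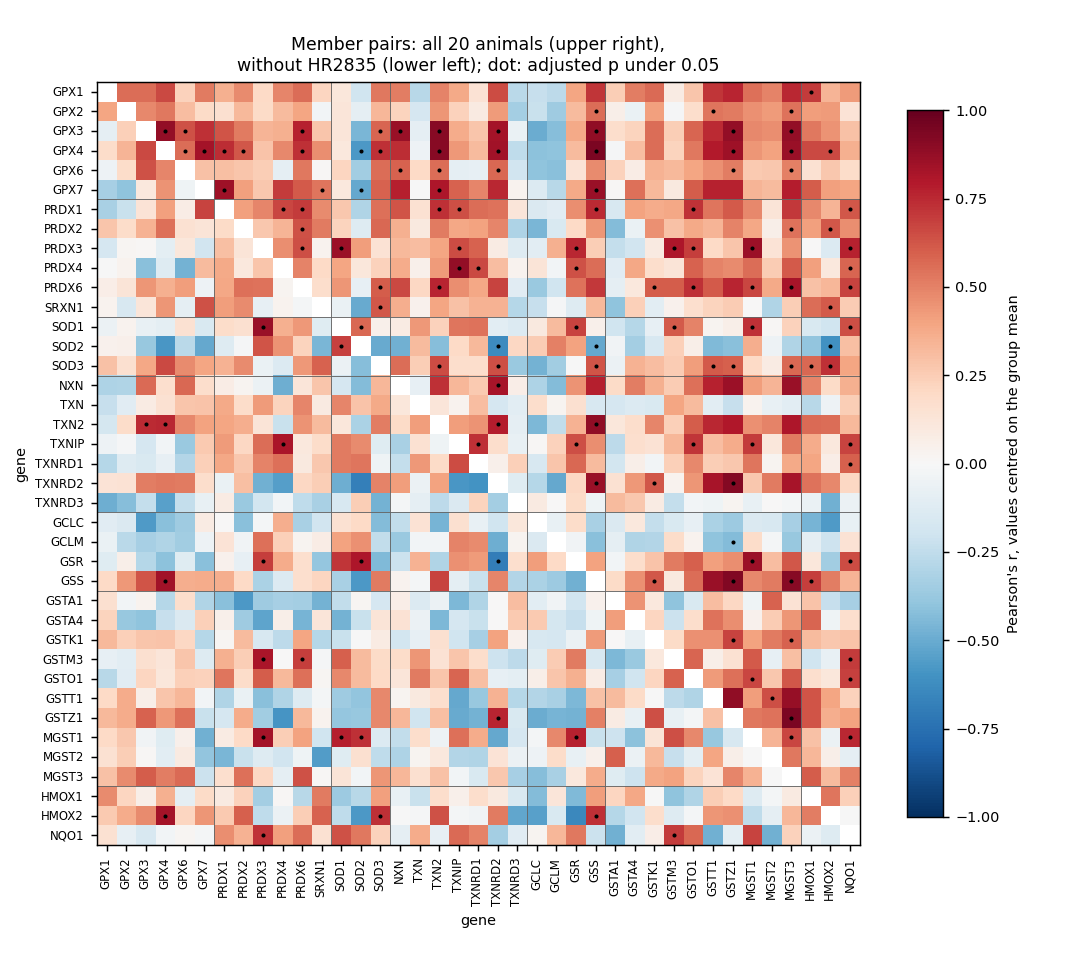
Pearson's r of every pair of members on values centred on the group means, with all 20 animals above the diagonal and without HR2835 below it, and a dot where the adjusted p was under 0.05 (112 and 21 pairs). The upper triangle is mostly positive, with a median of 0.32, and the lower one is mixed, with a median of 0.061.

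Peroxiredoxin of mitochondria and cytosolic superoxide dismutase moved together. PRDX3 and SOD1 had r = 0.85 and rho = 0.84 (permutation test, p = 2e-05, adjusted p = 0.0037), with r of 0.89 within HR and 0.80 within LR, 0.86 without HR2835 and 0.81 when the 2 animals with the most extreme PRDX3 values were left out. Both genes were highest of HR in HR2593 and highest of LR in LR2579. These values are those of the representative SOD1 probe set, which not all further probe sets of SOD1 followed. PRDX3 also moved with MGST1 (r = 0.85, rho = 0.81, permutation test, p = 5e-05, adjusted p = 0.0053, 0.83 without HR2835). It took part in 5 of the 21 pairs that passed without HR2835, more than any other member, the others being with GSR (r = 0.75 with all animals and 0.69 without HR2835), GSTM3 (0.81 and 0.81) and NQO1 (0.77 and 0.72).

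GSR and MGST1 had r = 0.86 and rho = 0.84 (permutation test, p = 1e-05, the smallest these permutations can give, adjusted p = 0.0025), with 0.94 within HR, 0.64 within LR, 0.77 without HR2835 and 0.73 without the 2 farthest animals. PRDX4, the peroxiredoxin of the endoplasmic reticulum, and TXNIP had r = 0.88 and rho = 0.86 (permutation test, p = 1e-05, adjusted p = 0.0025), with 0.90 within HR and 0.86 within LR, and 0.82 both without HR2835 and without the 2 farthest animals. On the representative probe sets these pairs thus held in both groups. The pairs of MGST1, that with PRDX3 included, rest on its representative probe set. Its second one, with a mean of 6.84, had r = 0.52 with that. Of the other TXNIP probe sets, 1 with a mean of 7.71 did not follow the representative one (r = -0.16), and 1 with a mean of 5.72 had r = 0.63 with it.

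Glutathione peroxidases took part in another group of pairs. GPX4 and GSS had r = 0.94 and rho = 0.78 (permutation test, p = 1e-05, adjusted p = 0.0025), with 0.97 within HR, 0.91 within LR, 0.84 without HR2835 and 0.83 without the 2 farthest animals. GPX3 and the mitochondrial thioredoxin TXN2 had r = 0.91 and rho = 0.75 (permutation test, p = 5e-05, adjusted p = 0.0053), and 0.75 without HR2835 and 0.70 without the 2 farthest animals. Among pairs chosen after their values were seen, GPX4 and HMOX2 had r = 0.84 without HR2835 and 0.66 with it.

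The most negative pair was SOD2 and TXNRD2, both of mitochondria, with r = -0.63 and rho = -0.75 (permutation test, p = 0.00046, adjusted p = 0.014). Without HR2835 r was -0.69 and the adjusted p was 0.083, so that the pair no longer passed. It was negative within both groups, at -0.71 in HR and -0.67 in LR, and r was -0.61 without the 2 farthest animals. These values are those of the representative probe sets. The dim other probe sets of TXNRD2, with means of 4.06 and 3.77, had r = 0.36 and -0.34 with the representative one. That of SOD2, with a mean of 3.59, had r = 0.47. SOD2 took part in 5 of the 6 negative pairs, the others being with GSS (r = -0.51 with all animals and -0.58 without HR2835), GPX4 (-0.58 and -0.58), GPX7 (-0.51 and -0.51) and HMOX2 (-0.60 and -0.57). Without HR2835 these had adjusted p between 0.146 and 0.278 in the permutation test, and 0 of them passed.

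GSR, named here after its values were seen, shows how far 1 array can move a relation. With all animals GSR and SOD2 had r = 0.40 (rho = 0.65, permutation test, p = 0.057, adjusted p = 0.159), and without HR2835 r = 0.81 (rho = 0.87, permutation test, p = 1e-05, adjusted p = 0.0074), with 0.94 within the 9 remaining HR animals and 0.81 within LR. HR2835 combined the lowest GSR value of all animals, 7.86, with a SOD2 value of 9.51 that was the highest of HR. Here too the values are those of the representative probe sets of SOD2 and TXNRD2. The relation of GSR and TXNRD2 changed sign, from r = 0.21 (rho = -0.46, permutation test, p = 0.460, adjusted p = 0.604) with all animals to r = -0.69 (rho = -0.73, permutation test, p = 0.00051, adjusted p = 0.025) without HR2835, and it was then the only negative pair of the 21 that passed.

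**Figure D5:**
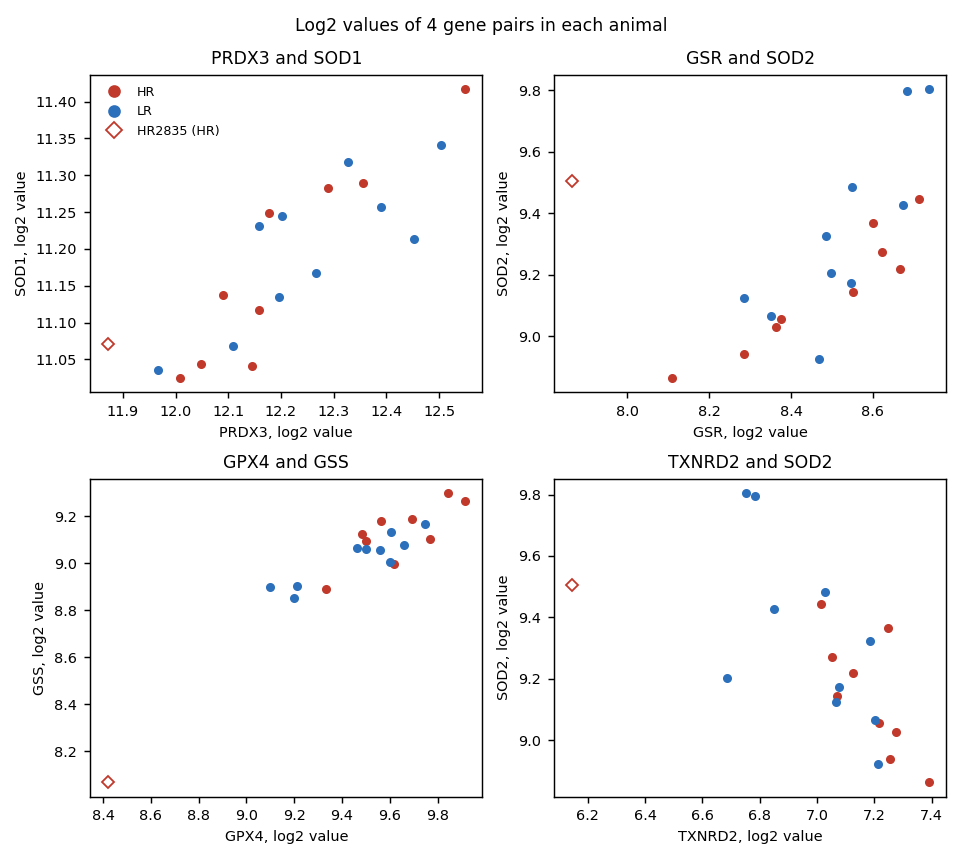
Log2 values of 4 pairs of genes in each animal, HR in red, LR in blue and HR2835 as an open diamond. HR2835 lies along the trend for PRDX3 with SOD1 and for GPX4 with GSS, and apart from the other 19 animals for GSR with SOD2 (r = 0.40 with it and 0.81 without it) and for TXNRD2 with SOD2.

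Some partners known from biochemistry, also named after their values were seen, did not pass the test. They do not stand for such partners in general, since GPX4 and GSS, a user and the maker of glutathione, passed as given above. The subunits GCLC and GCLM had r = -0.076 (rho = -0.045, permutation test, p = 0.748, adjusted p = 0.833), TXN and TXNRD1 had r = 0.31 (rho = 0.32, permutation test, p = 0.203, adjusted p = 0.354), and TXN and its inhibitor TXNIP had r = 0.034 (rho = 0.11, permutation test, p = 0.888, adjusted p = 0.921). Without HR2835 r was -0.15 for GCLC and GCLM, 0.43 for TXN and TXNRD1 and 0.16 for TXN and TXNIP, with adjusted p between 0.342 and 0.797. At 20 animals a weak relation would not be seen. GCLC, GSTA1, GSTA4, TXN and TXNRD3 took part in 0 of the 112 pairs.

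The members were last set against 9 marker scores, 7 of cell types the gland could hold, 1 of liver as a tissue that should be absent, and 1 of Y-linked genes. Of 351 relations, 16 passed an adjusted p of 0.05, 0 of them without HR2835 and 0 by Spearman's rho. The share of genes outside the members with such relations was not measured, so that the count does not set the members apart from other genes. The cortex score took part in 8 of the 16, the single measured gene of the list of Y-linked genes, EIF1AY, in 7 and the red blood cell score in 1, that of PRDX2, a peroxiredoxin abundant in red blood cells (r = 0.67, rho = 0.59, permutation test, p = 0.0016, adjusted p = 0.039, 0.62 without HR2835). Both PRDX2 probe sets were dim, at means of 3.13 and 2.94, and had r = 0.26 with each other. The steepest relations were those of GSS with r = 0.91 and rho = 0.61 (0.64 without HR2835), TXN2 with r = 0.89 and rho = 0.60 (0.69), GPX7 with r = 0.88 and rho = 0.65 (0.55) and TXNRD2 with r = 0.86 and rho = 0.60 (0.59), each with the cortex score and each with an adjusted p of 0.016 in the permutation test. For EIF1AY, GPX3 had r = -0.77 and rho = -0.72 (-0.64 without HR2835) and GSTZ1 had r = -0.73 and rho = -0.60 (-0.70), with the same adjusted p. EIF1AY averaged 7.97 ± 0.36 over all animals (SD, n = 20) with no separate levels, and it was highest in HR2835. Without that array the median r of the 39 genes with the cortex score was 0.054, against 0.47 with it. Leaving out 2 animals, those farthest from the median of the score, gave r between 0.48 and 0.63 for the 4 genes named with the cortex score. With EIF1AY, whose value is the score there, it gave -0.59 for GPX3 and -0.66 for GSTZ1.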

How the data were processed

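RNA of 20 adrenal glands was hybridized to Affymetrix Porcine Snowball arrays, and the authors used GCOS 1.1.1 for the scans and the RMA method for normalization, so that the deposited values are log2 values per probe set. They were used without further normalization or filter, after 123 control probe sets were left out. Genes were named through the annotation of the array, in which 26426 probe sets had 1 symbol, 0 had several and 21296 had none, and positions are those of RefSeq genes of Sscrofa11.1 matched by symbol, which 38 of 39 members had. CAT, GPX5, GPX8 and PRDX5 were not analysed here. The columns of samples not used numbered 0.

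The test between HR and LR was limma 3.58.1 in R 4.3.3 (a linear model with moderated variance and no covariate, Benjamini-Hochberg adjustment over all 47722 probe sets, threshold 0.05). Correlations used values centred on the group means and two-sided permutation tests with 100000 resamples within groups, in Python 3.11.15 with numpy 2.4.6, with adjustment over 741 pairs of members and, apart from these, over 351 relations with marker scores. Both steps were checked on simulated data. Each array is 1 animal, and the number of arrays limits the precision. Values in full are given for the members with the 5 smallest p in each direction, the 4 with the highest mean and the 4 with the largest SD. Pairs in full are the 6 with the smallest p, then the largest r, and the most negative one, and relations with scores are the 6 with the smallest p. In each pathway list up to 2 genes with the smallest p are given, and for the member with the largest SD the 5 genes most alike. Features named outside this rule are marked as chosen after their values were seen, or belong to a count that lists them. Members and lists were chosen with earlier results of these data known. Alternatives covered filters, normalization, array weights, marker scores as covariates, other probe set rules, rank correlation and left-out animals. Promoter sequences were not analysed here.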

Additional observations from a re-analysis of the deposited data

Results flagged for a closer look

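In 16 of 78 groups, 1 animal lay apart from the other 9 by Dixon's criterion for 10 samples, where chance gives about 1 in 20 groups. HR2835 was the low animal in 14 of them, all in HR. This array was lowest of HR for 44.8% of all probe sets above the median level. The share of all probe sets flagged by the criterion was not computed, so that the flags do not set the members apart from other genes. Its values were 5.54 for GPX1, 11.70 for GPX3, 8.42 for GPX4 and 6.85 for GPX7 among the glutathione peroxidases, and 9.39 for PRDX1, 7.11 for PRDX4 and 9.77 for PRDX6 among the peroxiredoxins. They were 6.39 for NXN, 8.24 for TXN2 and 6.14 for TXNRD2 in the thioredoxin group, 8.07 for GSS, 7.11 for GSTT1, 6.07 for GSTZ1 and 6.25 for MGST3. Beside the 2 members with the widest gaps, the next lowest HR values were 8.02 for GSTZ1 and 8.01 for MGST3. HR2797 was the low animal for GSTA1, at 7.15 against a next lowest HR value of 10.52. In LR, LR2793 was the low animal for GSTK1, at 7.95 against 8.25.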

How the results depend on the processing

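Across all alternatives 0 members passed an adjusted p of 0.05, and of 522 alternative differences of the 15 members given in full, 498 kept their direction and 24 reversed, with 0.597 as the smallest adjusted p.

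The number of members with an unadjusted p under 0.05, 1 with all animals, was 0 among probe sets above the median level and among the brightest 25%, 2 with the capsule and fibroblast score, 2 with the cortex score, 3 with the leukocyte score and 2 with the EIF1AY value as covariate, and 3 after quantile normalization without HR2835. Leaving out 1 animal gave 0 to 3, with 3 without HR2593 or HR2835 and 0 without HR2797, HR2857, HR2894, HR2897, HR2915, HR2978, LR2016, LR2562, LR2594, LR2611, LR2635 or LR2793. The number of members with the higher mean in HR, 15 with all animals, was 24 with array weights, 26 with the capsule and fibroblast score, 23 with the cortex score, 4 with the leukocyte score, 7 with EIF1AY, 25 after quantile normalization without HR2835, and 12 to 24 with 1 animal left out, with 24 without HR2835. The median difference lay between -0.066 and 0.051 with 1 animal left out, and the count of pathway genes with an unadjusted p under 0.05 was 2 without HR2835. Why the directions moved with these scores was not tested.

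Differences reversed for TXNIP to 0.0020 after quantile normalization, 0.045 with array weights, 0.050 with the capsule and fibroblast score, 0.017 with the cortex score, 0.018 for the mean of all probe sets and 0.051 both without HR2835 and after quantile normalization without it. GSTZ1 reversed to 0.045 with array weights, 0.24 with the capsule and fibroblast score, 0.033 with the cortex score, 0.098 without HR2835 and 0.12 after quantile normalization without it. GSTA4 reversed to 0.14 with the capsule and fibroblast score and to 0.0015 after quantile normalization without HR2835. TXNRD2 reversed to -0.0087 with the leukocyte score, -0.029 with EIF1AY, -0.022 for the mean of all probe sets and -0.24 for the probe set with the highest SD, and GSTK1 to -0.042 and -0.016 with the leukocyte score and EIF1AY. With 1 animal left out TXNIP lay between -0.073 and 0.051 and GSTZ1 between -0.16 and 0.098, and GSTA1 between -0.80 and -0.20, the last without HR2797.

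The 112 pairs of members became 47 by Spearman's rho, 67 after quantile normalization and 21 without HR2835. Their median r of 0.32 became 0.18 by rho, 0.49 within HR only, 0.11 within HR without HR2835, 0.060 within LR only and 0.061 to 0.34 with 1 animal left out, the lowest without HR2835. The 16 relations with scores became 0 by Spearman's rho and 0 without HR2835. The quantile normalization without HR2835 and the omission of each animal for the pairs were added after seeing the data. No paired analysis was possible because the numbers of the animals are not shared between HR and LR. The description of promoter sequences was not run.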
